A study of Mus musculus with 21 samples.

Results

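The genes described were 10 genes of TGF-beta signaling among the 54123 genes of the deposited tables. They were taken by symbol as ligands (Tgfb1, Tgfb2 and Bmp7), receptors (Tgfbr1 and Tgfbr2), SMADs (Smad2, Smad3, Smad4 and Smad7) and the TGF-beta-induced gene Tgfbi. All 10 were found, and all 10 passed the filter on low counts in each fit. They were measured by RNA-Seq in 21 libraries of polymorphonuclear neutrophils (PMNs) and renal tubular epithelial cells (TECs) of wildtype mice, isolated 24 hours after surgery. Surgery was a sham operation or ischemia-reperfusion injury (IRI) by clamping of both renal pedicles, and it followed remote ischemic preconditioning (RIPC) with a hind limb cuff or a control procedure. PMNs are labelled as neutrophils of blood, and TECs were enriched from kidney with beads against prominin-1. All groups are wildtype, and the study's methods name male C57BL/6 mice. This gave 8 groups. PMNs were sequenced in 2 libraries of the sham control group, 3 of sham with RIPC, 2 of the IRI control group and 3 of IRI with RIPC. TECs were sequenced in 3 libraries of the sham control group, 3 of sham with RIPC, 2 of the IRI control group and 3 of IRI with RIPC. The comparisons address how the TGF-beta genes differ between the cell types, and whether IRI and RIPC change them.

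TGF-beta ligands are released in a latent form and, once activated, bring together a type II and a type I serine/threonine kinase receptor. The type I receptor phosphorylates the receptor SMADs Smad2 and Smad3, which enter the nucleus with the shared partner Smad4 and regulate genes. Smad7 is an inhibitory SMAD that is itself induced by the pathway. Bmp7, a bone morphogenetic protein of the same superfamily, acts through other receptors and SMADs and is made by kidney epithelium. In the kidney the pathway is known for its part in fibrosis after injury.

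The libraries held between 20881334 and 51624602 estimated reads and had reads on 14331 to 26584 genes. In PMNs the depth moved with surgery, from 20881334 to 23517048 reads after sham surgery and from 25661853 to 30507235 after IRI. Replicate 2 of the sham control group of TECs stood apart with both the most reads and the fewest genes. The 12 neutrophil markers summed to between 9541 and 47060 TPM (the length-scaled share of a library) in PMNs and to at most 90.6 TPM in TECs, where Camp and Ifitm6 had no library over 3 reads. RNA of other cells was present in the PMN libraries, although the labels give blood as their tissue. The 10 macrophage and monocyte markers summed to between 1771 and 6105 TPM in sham PMNs, between 575 and 1239 TPM in IRI PMNs, and at most 24.4 TPM in TECs. Most of that sum came from C1qa, C1qb and C1qc, with medians of 1013, 1223 and 688 TPM in sham PMNs and 221, 311 and 16.9 TPM in IRI PMNs. Other members of the list did not all share this order. The medians after sham surgery and after IRI were 74.6 and 126 TPM for Ly6c2, 16.6 and 19.7 TPM for Ccr2, and 158 and 159 TPM for Cd68. Csf1r (49.6 and 42.1 TPM) and Adgre1 (27.85 and 11.5 TPM) were lower after IRI by their medians. The 12 proximal tubule markers, such as Slc34a1 and Kap, summed to between 1253 and 8748 TPM in sham PMNs and between 435 and 792 TPM in IRI PMNs. In TECs the same markers summed to between 3730 and 8787 TPM after sham surgery and between 1509 and 2863 TPM after IRI. The highest sums of the other lists in any library were 1068 TPM for distal tubule and collecting duct, 326 for platelets, 60.6 for lymphocytes, 113 for endothelium, 15.7 for fibroblasts and mesangium, and 1336 for erythrocytes. These libraries are bulk samples, so fewer cells of a type and less RNA per cell cannot be told apart. Replicates of a group varied widely, with a common biological coefficient of variation of 1.65 in PMNs and 1.54 in TECs.

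Per length, the order of the 10 genes differed between the cell types. In PMNs Tgfbi stood first, with a median of 249 TPM (lowest 47.5, highest 450), and its lowest library lay above every PMN library of Tgfbr1, Tgfbr2, Smad2, Smad3 and Smad4. Tgfbr1 followed with a median of 6.48 TPM, Tgfbr2 with 5.17 and Smad2 with 3.98. The ranges of these 3 genes overlapped, as did those of Smad3 (median 1.70 TPM), Smad4 (1.59) and Tgfb1 (1.32) below them. In TECs the medians were 5.06 TPM for Smad2, 4.04 for Smad4, 3.95 for Bmp7, 2.97 for Tgfbr1 and 2.42 for Smad3, and every neighboring pair overlapped. Tgfb2 was last in both cell types, with a median of 0 TPM.

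**Figure D1:**
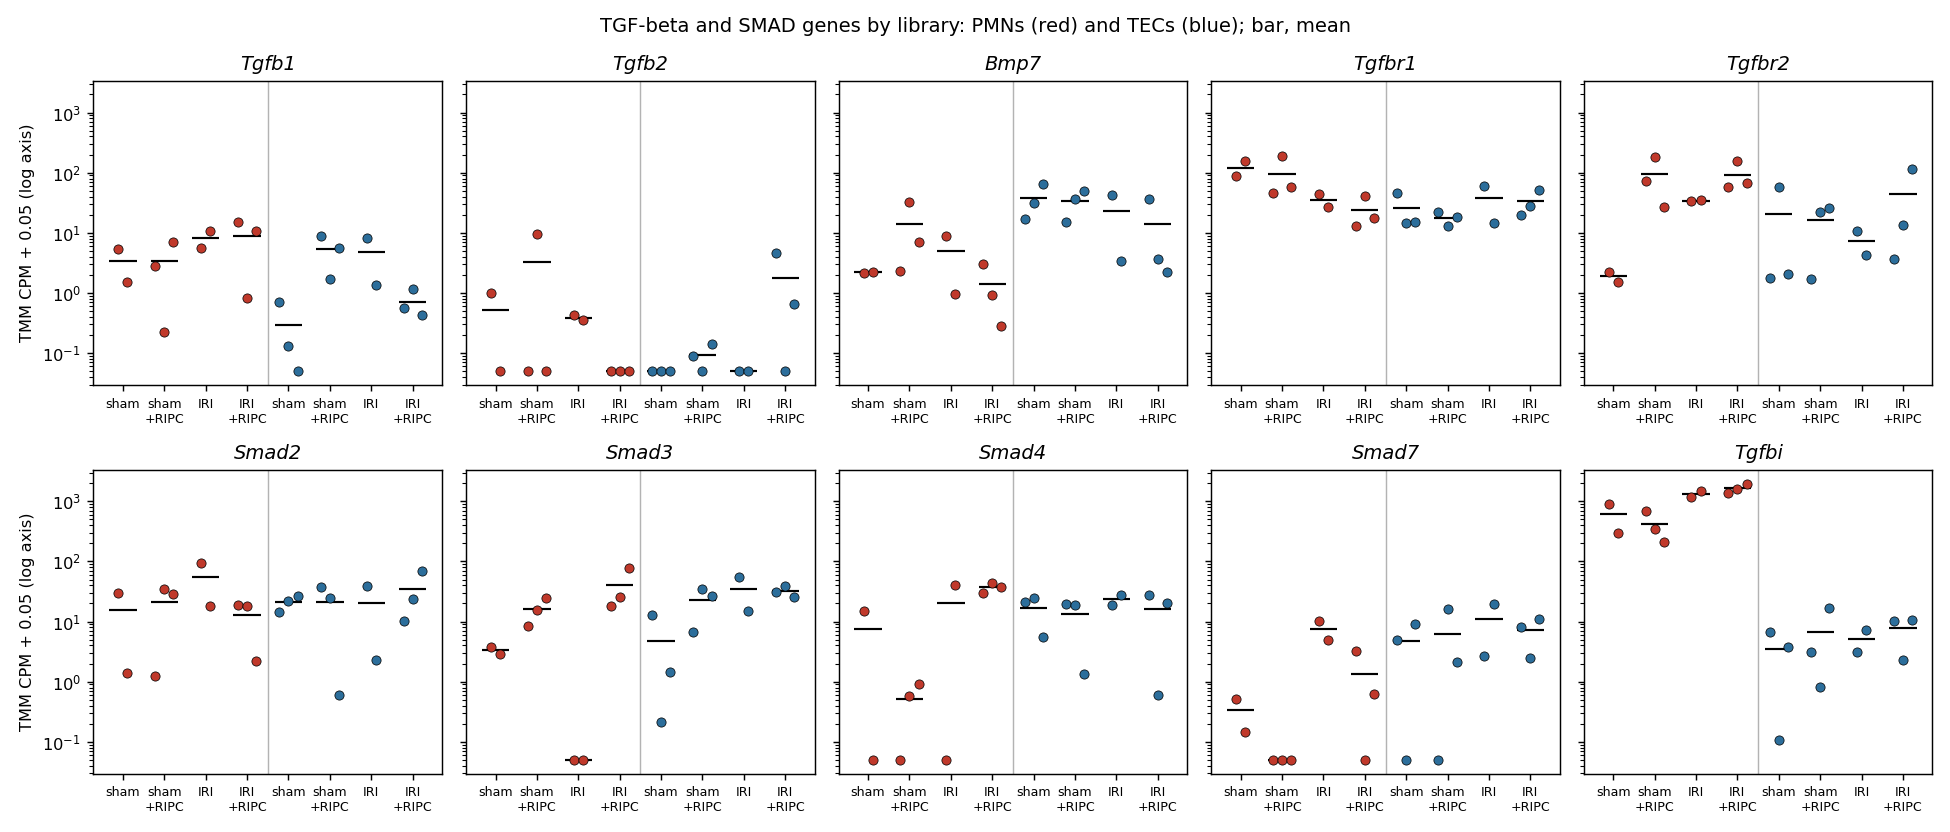
Each panel shows 1 gene. The vertical log axis gives CPM, the counts scaled to library size by TMM,, with 0.05 added so that 0 can be drawn, and the horizontal axis gives the 4 groups of PMNs (red) and the 4 groups of TECs (blue), where "sham" and "IRI" without RIPC are the control groups. Points are libraries and bars are group means. Tgfbi lies far higher in every PMN library than in every TEC library, Smad3 is at 0 in both PMN libraries of the IRI control group, and most other genes spread widely within groups.

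PMNs and TECs differed most in Tgfbi, which encodes a secreted matrix protein that binds integrins and collagens. Tgfbi was 1055 ± 648 CPM (SD, n = 10) in PMNs and 5.60 ± 4.82 CPM (SD, n = 11) in TECs. Smad3 was the other gene called, at a lower fitted level in PMNs, and that call rested on the IRI control group of PMNs. Thus 2 of the 10 genes were called by the quasi-likelihood test of edgeR at an adjusted p under 0.05, beside 6.87% of the 31769 genes tested. The median log2 fold change of the 10 genes was 0.38 and that of all genes was -0.02.

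For Tgfbi, PMNs of the sham control group had 22996 and 6466 reads, and those of sham with RIPC had 14519, 7767 and 4394. The IRI control group of PMNs had 28581 and 39540 reads, and IRI with RIPC had 34871, 38461 and 51176. TECs had between 2 and 355 reads over their 11 libraries. All PMN libraries therefore lay above all TEC libraries, which held for 0.818% of all genes. The fitted log2 fold change was 7.40 (SE 0.79, edgeR adjusted p = 4.12e-06), and it stayed between 7.12 and 7.81 with any single library removed. The macrophage list was also higher in every PMN library than in every TEC library, and its part in the level of Tgfbi was not tested.

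In PMNs the protein-coding transcript Tgfbi-201 held most Tgfbi reads, between 3310 and 43069 in a library. Transcripts annotated as protein-coding held between 75.3% and 86.1% of the Tgfbi reads of PMN libraries. In TECs that share ranged from 0% to 89.3% over the 10 libraries with at least 10 reads, with a median of 14.8%. Coding transcripts held most Tgfbi reads in 4 of these 10 libraries, among them the TEC library with the most reads (355 reads, 80.0% coding). The median share was 14.3% in sham TECs and 62.3% in IRI TECs. Tgfbi (ENSMUSG00000035493.10) lies on chr13:56609523-56639562, plus strand, in the GRCm38 build.

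Promoter windows are shown for Tgfbi and for Smad3 and Tgfbr2, the genes whose levels the results turn on. They are the stretch of up to 250 bases before the annotated gene start, from RefSeq sequence of GRCm38.p6, written 5′ to 3′ along the gene. Capitals mark the SMAD box, the letters CAGAC or its reverse complement GTCTG, the short element that SMAD proteins bind. Of 32851 promoter windows, 42.2% held at least 1 such match, and the 8-letter PU.1 motif GAGGAAGT or its reverse complement was held by 2.44%.
Tgfbi (chr13:56609336-56609522, plus strand): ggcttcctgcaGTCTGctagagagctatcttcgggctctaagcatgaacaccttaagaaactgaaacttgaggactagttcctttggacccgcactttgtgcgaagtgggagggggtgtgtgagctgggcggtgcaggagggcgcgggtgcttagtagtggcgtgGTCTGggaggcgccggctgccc
Smad3 (chr9:63757995-63758244, minus strand): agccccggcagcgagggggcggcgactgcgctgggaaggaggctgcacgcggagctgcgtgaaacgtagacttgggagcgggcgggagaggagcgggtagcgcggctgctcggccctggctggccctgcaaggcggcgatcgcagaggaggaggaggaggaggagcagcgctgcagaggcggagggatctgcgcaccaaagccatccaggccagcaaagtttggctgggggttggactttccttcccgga
Tgfbr2 (chr9:116175364-116175613, minus strand): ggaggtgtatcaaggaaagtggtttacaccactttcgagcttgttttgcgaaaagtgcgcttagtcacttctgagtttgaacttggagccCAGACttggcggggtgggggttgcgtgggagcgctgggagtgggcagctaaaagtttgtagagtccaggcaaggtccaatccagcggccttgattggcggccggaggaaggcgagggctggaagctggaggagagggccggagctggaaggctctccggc
The Tgfbi window of 187 bases held 2 SMAD boxes, the Tgfbr2 window held 1 and the Smad3 window held 0. None of the 3 held the PU.1 motif. Matches to such short letters are a description of the sequence and not binding sites. Of the 10 genes, 6 had a promoter entry.

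The ligand Tgfb1, the main TGF-beta of immune cells, had few reads in every group. Sham control PMNs had 133 and 32 reads, sham PMNs with RIPC had 59, 4 and 143, IRI control PMNs had 135 and 286, and IRI PMNs with RIPC had 383, 19 and 276. TECs had 15, 3 and 0 reads in the sham control group, 225, 41 and 121 in sham with RIPC, 200 and 27 in the IRI control group, and 13, 24 and 8 in IRI with RIPC. The cell types overlapped, and the log2 fold change of PMNs over TECs was 2.02 (SE 0.96, edgeR adjusted p = 0.273).

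Much of the Tgfb1 signal was not assigned to its coding transcript. Tgfb1-201, the protein-coding transcript, had 28, 175, 138, 14 and 250 reads in the 5 IRI libraries of PMNs. It had 9 and 26 reads in the sham control PMNs and 0 in all 3 sham PMN libraries with RIPC. In TECs it had 0 reads in 10 of 11 libraries and 5 reads in replicate 2 of the IRI control group. The retained-intron transcript Tgfb1-204 held 218, 41 and 121 reads in sham TECs with RIPC and 200 in replicate 1 of the IRI control group. By the estimated assignment of reads, the Tgfb1 level of TECs was thus that of an intron-containing transcript in nearly all libraries. TEC libraries had 0 to 225 Tgfb1 reads, and the split among transcripts rests on that assignment. The share of Tgfb1 reads on coding transcripts was at most 18.5% in the 8 TEC libraries with at least 10 reads, and between 21% and 90.6% in IRI PMNs.

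**Figure D2:**
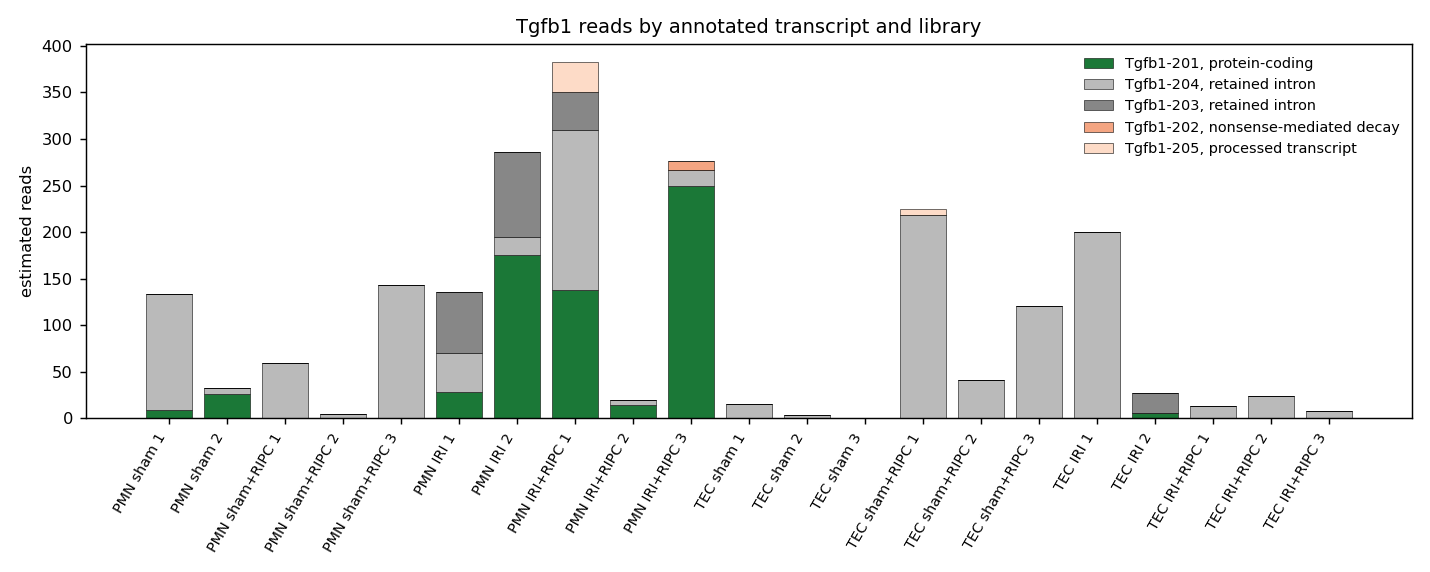
Stacked bars give the estimated reads of Tgfb1 in each of the 21 libraries (number, replicate), split by annotated transcript. The coding transcript (green) reaches 250 reads in IRI PMNs and at most 5 reads in TECs, where the retained-intron transcript (light gray) holds nearly all reads.

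Tgfb2, another TGF-beta ligand, was close to absent. It had 0 reads in 6 of the 10 PMN libraries and 7 of the 11 TEC libraries, and over 100 reads only in replicate 2 of sham PMNs with RIPC (218 reads) and replicate 1 of IRI TECs with RIPC (116 reads). No group held it above 3 reads in every library except the IRI control group of PMNs, with 9 and 8 reads. No difference of Tgfb2 was detectable at this depth, and its fitted fold changes are not given because they rest on single libraries.

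Of the 3 ligands, Bmp7 had the highest median level per length in TECs. TECs had 394, 1146 and 1686 reads in the sham control group, 389, 906 and 1059 in sham with RIPC, 1046 and 70 in the IRI control group, and 936, 80 and 47 in IRI with RIPC. PMNs had 54 and 47 reads in the sham control group, 48, 745 and 145 in sham with RIPC, 212 and 24 in the IRI control group, and 78, 21 and 6 in IRI with RIPC. All sham TEC libraries were at or above 389 reads, whereas 3 of the 5 IRI TEC libraries were at or below 80. Bmp7 was 26.4 ± 20.2 CPM (SD, n = 11) in TECs and 6.27 ± 10.1 CPM (SD, n = 10) in PMNs. The log2 fold change of PMNs over TECs was -2.64 (SE 0.81, edgeR adjusted p = 0.0546), which missed the threshold. It was called with any of 5 single libraries removed, and the alternatives run in edgeR gave adjusted p-values from 0.0256 to 0.272.

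The type I receptor gene Tgfbr1 was read in every library. PMNs had 2221 and 3312 reads in the sham control group, 977, 4244 and 1190 in sham with RIPC, 1076 and 710 in the IRI control group, and 329, 986 and 465 in IRI with RIPC. TECs had between 309 and 1484 reads, with a median of 527. The log2 fold change of PMNs over TECs was 1.15 (SE 0.46, edgeR adjusted p = 0.164). With the sham groups alone, a choice made after seeing the data, it was 2.48 (edgeR adjusted p = 0.0445).

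The type II receptor gene Tgfbr2 showed a wider spread. PMNs had 55 and 32 reads in the sham control group, 1559, 4210 and 551 in sham with RIPC, 820 and 923 in the IRI control group, and 1466, 3755 and 1758 in IRI with RIPC. The sham control group of PMNs thus stood below the other 8 PMN libraries. TECs had 40, 2083 and 51 reads in the sham control group, 42, 560 and 551 in sham with RIPC, 261 and 89 in the IRI control group, and 94, 297 and 2455 in IRI with RIPC. The cell types overlapped, with a log2 fold change of 0.72 (SE 0.71, edgeR adjusted p = 0.833). With the sham groups alone, the same later choice, its sign turned, at -0.32.

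Smad3 and its relatives are set side by side in the 8 groups. Smad3 had 94 and 60 reads in sham control PMNs, 180, 348 and 511 in sham PMNs with RIPC, 0 and 0 in IRI control PMNs, and 464, 613 and 2021 in IRI PMNs with RIPC. In TECs it had 294, 6 and 36 reads in the sham control group, 170, 881 and 571 in sham with RIPC, 1362 and 307 in the IRI control group, and 794, 849 and 549 in IRI with RIPC. Among PMNs the IRI control group was thus lowest and IRI with RIPC held the highest library, whereas among TECs the sham control group held the 2 lowest libraries and the IRI control group the highest.

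Smad2, the partner of Smad3 as receptor SMAD, did not follow it. Smad2 had 764 and 29 reads in sham control PMNs, 25, 780 and 588 in sham PMNs with RIPC, 2243 and 488 in IRI control PMNs, and 485, 436 and 55 in IRI PMNs with RIPC. In TECs Smad2 had 333, 784 and 666 reads in the sham control group, 947, 613 and 12 in sham with RIPC, 962 and 47 in the IRI control group, and 260, 520 and 1477 in IRI with RIPC. In every group the libraries of Smad2 spanned more than 2-fold. In the IRI control group of PMNs, where Smad3 was at 0, Smad2 was read in both libraries.

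Smad4, the shared partner, had 379 and 0 reads in sham control PMNs, 0, 12 and 18 in sham PMNs with RIPC, 0 and 1082 in IRI control PMNs, and 771, 1068 and 969 in IRI PMNs with RIPC. In TECs Smad4 had 478, 895 and 138 reads in the sham control group, 502, 472 and 28 in sham with RIPC, 470 and 584 in the IRI control group, and 706, 12 and 426 in IRI with RIPC. Smad4 was thus read in all TEC libraries and was at 0 in 3 PMN libraries. The inhibitory Smad7 had 12 and 2 reads in sham control PMNs, 0 in all 3 sham PMN libraries with RIPC, 249 and 128 in IRI control PMNs, and 83, 0 and 15 in IRI PMNs with RIPC. In TECs Smad7 had 112, 0 and 231 reads in the sham control group, 0, 408 and 44 in sham with RIPC, 66 and 413 in the IRI control group, and 206, 53 and 231 in IRI with RIPC.

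Between PMNs and TECs, Smad3 had a log2 fold change of -3.25 (SE 0.78, edgeR adjusted p = 0.0132), although its plain means were alike at 18.7 ± 24.8 CPM (SD, n = 10) and 21.7 ± 16.6 CPM (SD, n = 11). The fit averaged the 4 groups of each cell type on the log scale, and the group of PMNs at 0 reads entered that average. Without the IRI control group of PMNs the log2 fold change was -0.41, and with the sham groups alone it was -0.39, each with an edgeR adjusted p of 1.00. Both of these fits were chosen after seeing the data. Smad7 was at -4.22 (SE 1.41, edgeR adjusted p = 0.0846), Smad4 at -1.12 (SE 1.05) and Smad2 at 0.04 (SE 0.79), none of them called. DESeq2's Wald test and DESeq2 with apeglm each called 6 of the 10 genes, Tgfb1, Bmp7, Tgfbr1, Smad3, Smad7 and Tgfbi, beside 14.2% and 16.3% of all genes.

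The Smad3 share of Smad2 plus Smad3, computed from TPM within each library, ranged from 0% to 99.6% in PMNs and from 0.277% to 98.8% in TECs. It was 41.2% ± 38.6 (SD, n = 10) in PMNs and 38.1% ± 33.7 (SD, n = 11) in TECs. The difference of 3.07 percentage points was far within the spread (permutation test, 100000 resamples, two-sided p = 0.846, Benjamini-Hochberg adjusted over 5 tests 0.846). The share was higher in IRI than sham TECs by 22.5 percentage points (exact permutation test, adjusted p = 0.736). In PMNs it was higher with RIPC than without by 32.4 points (exact permutation test, p = 0.229, adjusted p = 0.736). Neither difference passed the test, nor did that of IRI and sham in PMNs (-12.9 points, exact permutation test, adjusted p = 0.764) or of RIPC and control in TECs (14.8 points, exact permutation test, adjusted p = 0.764). By estimated reads in place of TPM, the difference of RIPC and control in PMNs was 41.9 points (exact permutation test, p = 0.0571, adjusted p = 0.286).

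**Figure D3:**
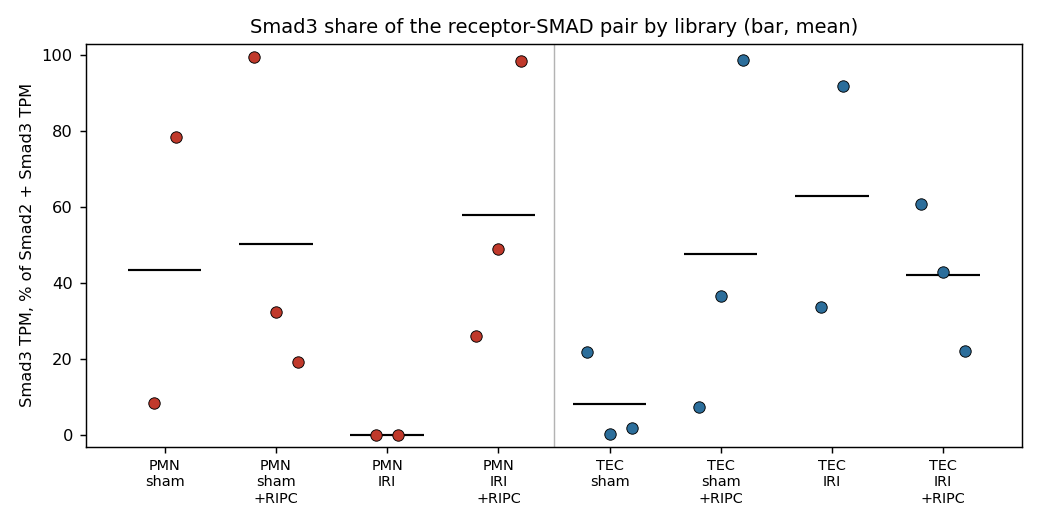
The vertical axis gives the TPM of Smad3 as a percent of the summed TPM of Smad2 and Smad3, for each library (points) of the 8 groups, with the group mean as a bar. Both PMN libraries of the IRI control group are at 0%, and within most other groups the libraries lie far apart.

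Nearly all Smad3 reads lay on the transcript Smad3-201. The exception was replicate 1 of sham PMNs with RIPC, in which all 180 reads were assigned to the short transcript Smad3-204, giving 18.5 TPM, the highest Smad3 value per length of any library. Its share of 99.6% thus rests on that assignment, and by reads it was 87.6%. No 50-base stretch of Smad2, Smad3, Smad4 or Smad7 transcripts was found in another gene, and for the other 6 genes at most 0.77% of such stretches were. Smad3 (ENSMUSG00000032402.12) lies on chr9:63646767-63757994, minus strand, and Tgfbr2 (ENSMUSG00000032440.13) on chr9:116084293-116175360, minus strand.

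In PMNs, Tgfbi was higher in each IRI library than in each sham library, and Tgfbr1 was lower by its mean. Tgfbi was 490 ± 294 CPM (SD, n = 5) after sham surgery and 1516 ± 294 CPM (SD, n = 5) after IRI, and its groups did not overlap. Tgfbr1 was 107 ± 61.6 CPM after sham surgery and 28.5 ± 13.9 CPM after IRI. Its groups were apart by CPM alone, at 44.6 CPM against 46.1 CPM for the nearest libraries, and overlapped by reads and by TPM. No gene passed the adjusted threshold, with 0 of the 10 called by edgeR beside 0.416% of the 25002 genes tested. At an unadjusted p under 0.05 there were 5 of 10, beside 11.8% of all genes. Groups apart by CPM, 2 of the 10 genes here, were found for 5.51% of all genes, 3.43% higher and 2.08% lower after IRI.

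The fitted log2 fold changes of IRI over sham in PMNs were 1.57 for Tgfbi (SE 0.40, edgeR adjusted p = 0.193) and -1.89 for Tgfbr1 (SE 0.60, edgeR adjusted p = 0.317). Tgfbr2 was at 2.10 (SE 0.62, edgeR adjusted p = 0.283), with 32 and 55 reads in the sham control group and at least 551 in the other 8 libraries. Smad7 was at 6.32 (SE 2.15, edgeR adjusted p = 0.387), with at most 12 reads in the sham libraries and 0 to 249 after IRI. Smad3 was at -3.98 (SE 0.91, edgeR adjusted p = 0.161), a value set by the 2 libraries at 0, since its plain mean was higher after IRI, at 24.2 ± 31.9 CPM against 11.0 ± 9.14 CPM. Smad4 was at 3.87 (SE 2.14, edgeR adjusted p = 0.468), and without replicate 2 of the IRI control group its sign turned to -2.06. Tgfb1 was at 1.34 (SE 1.26, edgeR adjusted p = 0.692).

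The call for Tgfbi changed with 1 library. Without replicate 1 of the PMN sham control group, which had the most Tgfbi reads of the sham PMNs, the log2 fold change was 2.08 and the edgeR adjusted p was 0.0419. DESeq2's Wald test and DESeq2 with apeglm each called the same 5 genes, Tgfbr1, Tgfbr2, Smad3, Smad7 and Tgfbi, beside 7.02% and 8.29% of all genes. In the same libraries, the summed macrophage and monocyte list, most of it the C1q genes, and the summed proximal tubule list were lower in every IRI library than in every sham library. Single members of the macrophage and monocyte list went different ways. The monocyte marker Ly6c2 was higher after IRI by its median, from 11.4 to 117 TPM in sham and from 90.1 to 225 TPM in IRI libraries. By their medians Csf1r (49.6 and 42.1 TPM) and Adgre1 (27.85 and 11.5 TPM) were lower after IRI. The medians were 16.6 and 19.7 TPM for Ccr2 and 158 and 159 TPM for Cd68. The part of these lists and markers in the differences above, and that of depth, was not tested.

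In TECs, none of the 10 genes differed detectably between IRI and sham surgery. By edgeR 0 of the 10 genes were called, beside 1.40% of the 25917 genes tested, 0 of the 10 had an unadjusted p under 0.05, beside 15.0% of all genes, and DESeq2's Wald test and apeglm each called 0, beside 7.79% and 9.68%. Groups did not overlap for 0 of the 10 genes, beside 4.58% of all genes, 1.43% higher and 3.16% lower after IRI. Smad3 had the smallest p, with 13.8 ± 14.2 CPM (SD, n = 6) after sham surgery and 33.1 ± 15.2 CPM (SD, n = 5) after IRI. Its groups overlapped, and the log2 fold change was 1.68 (SE 0.91, edgeR adjusted p = 0.412). Bmp7 was 35.9 ± 19.3 CPM (SD, n = 6) after sham surgery and 17.6 ± 20.0 CPM (SD, n = 5) after IRI, a log2 fold change of -1.0 (SE 0.88, edgeR adjusted p = 0.660). Log2 fold changes were above 0 for 8 of the 10 genes, with a median of 0.49 beside 0.15 for all genes.

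The effect of IRI was also compared between the cell types in a joint fit, chosen after seeing the data. By edgeR 0 of the 10 genes differed in their IRI effect, as did 0 of all 31769 genes, and 3 of the 10 had an unadjusted p under 0.05 beside 9.76% of all genes. Those 3 were Smad3 (log2 difference PMNs minus TECs -5.71, SE 1.5, edgeR adjusted p = 0.211), Tgfbr1 (-2.64, SE 0.93, edgeR adjusted p = 0.326) and Smad7 (5.60, SE 2.53, edgeR adjusted p = 0.475).

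**Figure D4:**
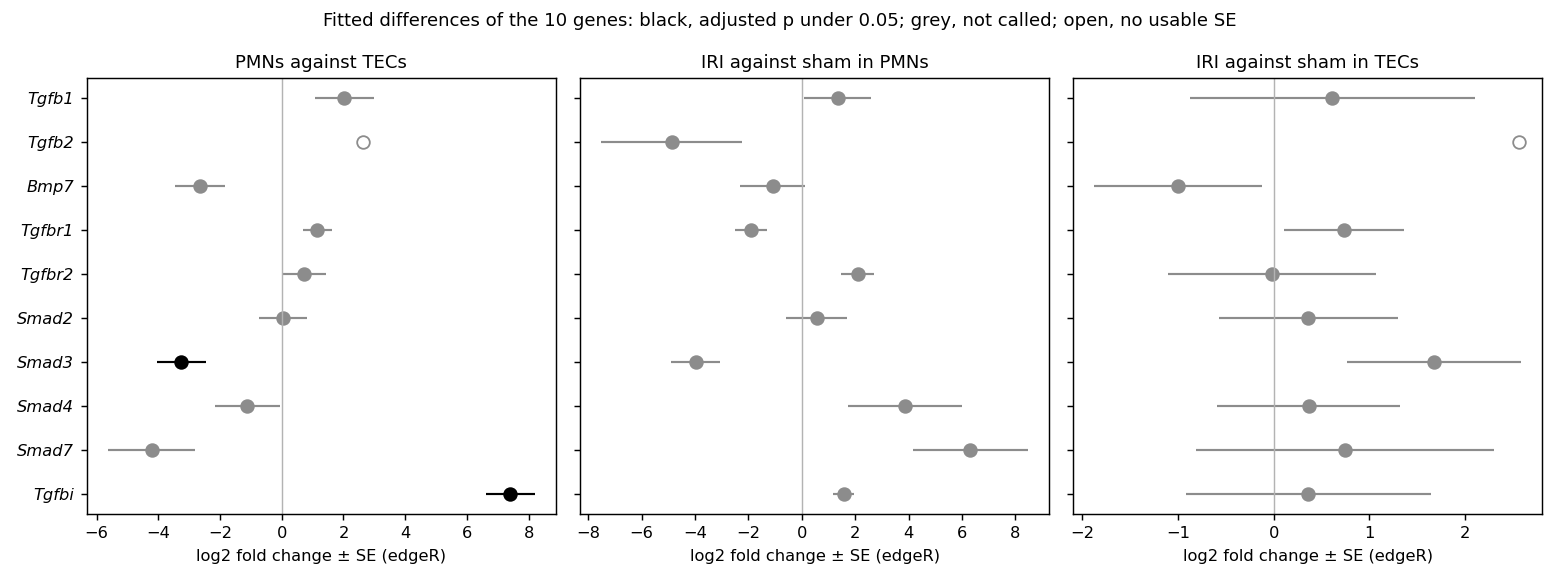
Points give the log2 fold change fitted by edgeR and lines give its standard error, for the 10 genes in PMNs against TECs, in IRI against sham in PMNs and in IRI against sham in TECs. Black marks an adjusted p under 0.05, grey marks genes not called, and open circles mark Tgfb2 where no usable error was fitted. Only Tgfbi (7.40) and Smad3 (-3.25) are black, both in PMNs against TECs.

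RIPC was compared with the control procedure within each surgery and cell type. In PMNs, the gene that separated the 2 treatments over both surgeries was Smad3. Its 4 control libraries had 0 to 94 reads and its 6 RIPC libraries had 180 to 2021, or 1.63 ± 1.91 CPM (SD, n = 4) and 28.3 ± 25.1 CPM (SD, n = 6). All RIPC libraries lay above all control libraries for 0.124% of all genes in PMNs, and for none of the other 9 genes. The separation of Smad3 rests on the sum over its transcripts. On Smad3-201 alone the treatments overlapped, because all 180 reads of replicate 1 of sham PMNs with RIPC were assigned to Smad3-204. The pattern of Smad3 after IRI was known from an earlier look at these data, so it is given here as a description. Against the limit of 3 reads that a count of 0 allows in each library, Smad3 was at least 324-fold higher with RIPC than in the IRI control group, which was at 0. This uses the mean of the RIPC libraries, and the bound was 174-fold without replicate 3 and 145-fold for the lowest of them. The limit covers counting error only, since PCR copies cannot be told from separate molecules when reads carry no molecular identifier. It also counts the added reads of both quantification tables of a library, which were not independent samples. These bounds may therefore be too high. By summed TPM, none of the 9 marker lists separated the RIPC from the control libraries of PMNs in the same direction after both surgeries. Such sums can rest on few genes, and groups had 2 or 3 libraries, so they do not decide the part of other cells. The part of other cells in the level of Smad3 was not tested.

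After sham surgery, Smad3 in PMNs was 3.25 ± 0.65 CPM (SD, n = 2) without and 16.2 ± 8.16 CPM (SD, n = 3) with RIPC. The groups did not overlap, and the log2 fold change was 2.31 (SE 1.17, edgeR adjusted p = 0.705). On Smad3-201 alone they overlapped, with 0 reads in replicate 1 with RIPC and 94 and 60 reads in the control libraries. Tgfbr2 was 1.83 ± 0.48 CPM (SD, n = 2) without and 95.3 ± 81.7 CPM (SD, n = 3) with RIPC after sham surgery. Its groups did not overlap either, and the log2 fold change was 5.70 (SE 1.10, edgeR adjusted p = 0.591). Groups were higher with RIPC without overlap for 3 of the 10 genes (Bmp7, Tgfbr2 and Smad3) beside 4.52% of all genes, and lower for 1, Smad7 with at most 12 reads, beside 8.24%. For Bmp7 this held by CPM alone, at 2.26 CPM against 2.19 CPM for the nearest libraries, and its groups overlapped by reads and by TPM. The 6 endothelial markers also summed higher with RIPC in these PMNs, to between 37.1 and 113 TPM against 13.9 and 15.6 TPM, and their part in the level of Tgfbr2 was not tested. By edgeR 0 of the 10 genes were called beside 0.00400% of all genes, 1 had an unadjusted p under 0.05 beside 4.60% of all genes, and DESeq2's Wald test and apeglm each called 1, Tgfbr2, beside 3.28% and 2.11% of all genes.

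After IRI, Tgfbr2 in PMNs was 34.4 ± 0.54 CPM (SD, n = 2) without and 93.1 ± 53.5 CPM (SD, n = 3) with RIPC, a log2 fold change of 1.44 (SE 0.88, edgeR adjusted p = 0.920). Its groups did not overlap, as was so for 4 of the 10 genes beside 16.5% of all genes, higher with RIPC for 2 (Tgfbr2 and Smad3) beside 6.41%. The endothelial markers summed lower with RIPC in these PMNs, to between 0.890 and 17.5 TPM against 19.1 and 19.7 TPM. Their part was not tested here either. Smad7 was lower with RIPC without overlap, at 1.27 ± 1.72 CPM against 7.57 ± 3.89 CPM, as was Tgfb2 with at most 9 reads, beside 10.1% of all genes. By edgeR 0 of the 10 genes and 0% of all genes were called, 1 of the 10 had an unadjusted p under 0.05 beside 2.72% of all genes, and DESeq2's Wald test and apeglm each called 1, Smad3, beside 1.72% and 0.160% of all genes.

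The RIPC effect was set against surgery by the interaction term. In PMNs, edgeR called 0 of the 10 genes and 0% of all genes, with 2 of the 10 at an unadjusted p under 0.05 beside 5.74% of all genes. These were Smad3 (log2 difference 10.59, SE 1.94) and Tgfbr2 (-4.26, SE 1.24), each with an edgeR adjusted p of 0.719. DESeq2's Wald test and apeglm each called both, beside 3.25% and 1.19% of all genes. Both turn on 1 group of 2 libraries, the IRI control group for Smad3 and the sham control group for Tgfbr2.

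The same 2 genes led the comparison of IRI with sham surgery without RIPC in PMNs. Tgfbr2 was higher after IRI, with a log2 fold change of 4.23 (SE 1.05, edgeR adjusted p = 0.736). Smad3 was lower in the IRI control group by at least 26.1-fold against the limit of 3 reads per library, a bound that may likewise be too high. By edgeR 0 of the 10 genes and 0% of all genes were called, 2 of the 10 had an unadjusted p under 0.05 beside 4.45% of all genes, and DESeq2's Wald test and apeglm each called 2, beside 2.96% and 1.98% of all genes.

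In TECs, RIPC after sham surgery went with more Tgfb1 reads in each library, at 0.245 ± 0.354 CPM (SD, n = 3) without and 5.38 ± 3.64 CPM (SD, n = 3) with RIPC. After IRI the order was opposite, at 4.69 ± 4.82 CPM (SD, n = 2) without and 0.662 ± 0.386 CPM (SD, n = 3) with RIPC. Neither pair of groups overlapped, as for 5.34% of all genes in the first direction and 8.89% in the second. The log2 fold changes were 4.44 (SE 2.32, edgeR adjusted p = 0.708) and -2.82 (SE 2.27, edgeR adjusted p = 0.838). The interaction was -7.26 (SE 3.22, edgeR adjusted p = 0.689). DESeq2's Wald test called it (adjusted p = 0.0339) and apeglm did not (s = 0.267). By the estimated assignment, these reads lay outside the coding transcript in all TEC libraries but replicate 2 of the IRI control group, which had 5 of its 27 reads on Tgfb1-201. Its other 22 reads lay below the 24 of replicate 2 of IRI with RIPC.

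The other TEC genes showed no separation of this kind by RIPC. Smad3 after sham surgery was 4.78 ± 6.94 CPM (SD, n = 3) without and 22.8 ± 14.6 CPM (SD, n = 3) with RIPC, with overlap and a log2 fold change of 2.25 (SE 1.26, edgeR adjusted p = 0.708). By edgeR, 0 of the 10 genes were called after sham surgery, beside 0% of all genes, and 0 after IRI, beside 0.00386%. The 10 genes had 0 unadjusted p-values under 0.05 in either, beside 4.53% of all genes after sham surgery and 4.35% after IRI. DESeq2's Wald test and apeglm called 0 in each, beside 1.69% and 0.239% after sham surgery and 2.75% and 0.949% after IRI. For the interaction in TECs, edgeR called 0 of the 10 beside 0% of all genes, and 1, Tgfb1, had an unadjusted p under 0.05 beside 7.21%. For IRI against sham without RIPC in TECs, edgeR called 0 of the 10 beside 0.00386% of all genes, with 0 at an unadjusted p under 0.05 beside 8.59%. There the Wald test and apeglm of DESeq2 called 0, beside 5.02% and 4.30% of all genes.

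The wider pathway was followed in 79 other genes of ligands, latency and activation, receptors, SMADs, SMAD partners, antagonists and target genes. Between PMNs and TECs, 76 were tested and 10 were called by edgeR, 6 of them higher in PMNs, beside 6.87% of all genes. The target genes called were all higher in PMNs: Vim (vimentin, an intermediate filament protein, log2 fold change 6.97), Junb (an AP-1 subunit, 2.70), Fn1 (fibronectin, 3.69) and Snai1 (a transcriptional repressor, 8.37). Also higher in PMNs were 2 genes of latency and activation, Thbs1 (thrombospondin 1, an activator of latent TGF-beta, 8.66) and Nrros (which anchors latent TGF-beta on myeloid cells, 6.98). Lower in PMNs were Itgb6 (the integrin subunit of epithelium that activates TGF-beta, -3.45), the ligands Bmp6 (-3.91) and Gdf15 (-4.29), and Nedd4l (a ubiquitin ligase, -2.79). None of the 12 receptors and 4 SMADs of the list was called.

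Thbs1 was the gene of the list called for IRI in PMNs, 1 of 72 tested, beside 0.416% of all genes. It was 520 ± 591 CPM (SD, n = 5) after sham surgery and 7357 ± 1545 CPM (SD, n = 5) after IRI, without overlap. The log2 fold change was 3.89 (SE 0.53, edgeR adjusted p = 0.0255). The highest edgeR adjusted p over the alternatives was 0.0883. In all, 15 genes of the list, Thbs1 among them, had an unadjusted p under 0.05 beside 11.8% of all genes, and DESeq2's Wald test called 12 beside 7.02%.

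For IRI in TECs, 3 of 72 genes of the list were called beside 1.40% of all genes, all of them target genes. Ccn2 (connective tissue growth factor) rose from 5.49 ± 6.10 CPM (SD, n = 6) to 435 ± 444 CPM (SD, n = 5), with a log2 fold change of 6.42 (SE 1.36, edgeR adjusted p = 0.0350). Vim rose from 2.0 ± 3.02 to 39.5 ± 16.3 CPM (log2 fold change 8.14, SE 1.16, edgeR adjusted p = 0.00718). Id2, an inhibitor of helix-loop-helix factors that responds to BMP signals, fell by 1.88 on the log2 scale (SE 0.34, edgeR adjusted p = 0.0172), from 541 ± 111 to 148 ± 44.6 CPM. Vim and Id2 did not overlap between the surgeries. In the TECs the proximal tubule list was lower in every IRI library than in every sham library, and its part in these differences was not tested.

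For RIPC, edgeR called no gene of the list in either cell type or surgery. The 3 smallest p-values in PMNs belonged to Thbs1 (log2 fold change -1.77), Chrd (-9.64) and Cdkn2b (-10.40) after sham surgery, and to Sostdc1 (-9.22), Bmp4 (-7.44) and Bmp1 (-7.10) after IRI. In TECs Vim (9.62) and Bmp1 (5.08) were among them after sham surgery, and Gdf11 (10.72), Ltbp3 (-7.08) and Bmp2 (-9.68) held them after IRI. The edgeR adjusted p-values were between 0.705 and 0.920. Unadjusted p-values under 0.05 were found for 2, 3, 2 and 4 of the 72 genes in this order, beside 4.60%, 2.72%, 4.53% and 4.35% of all genes. DESeq2's Wald test called 0, 1, 2 and 1 genes of the list, beside 3.28%, 1.72%, 1.69% and 2.75% of all genes.

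For the interaction, the 3 smallest p-values belonged to Chrd (18.47), Ccn2 (-9.22) and Cdkn2b (16.81) in PMNs and to Vim (-10.50), Gdf11 (11.08) and Nrros (-10.16) in TECs. Without RIPC, IRI against sham surgery gave them to Thbs1 (2.90), Furin (2.93) and Tgif1 (2.35) in PMNs and to Vim (13.39), Id2 (-1.91) and Ccn2 (7.08) in TECs. For the IRI effect in PMNs against TECs they were Vim (-6.41), Id2 (2.84) and Fstl3 (-11.35). By edgeR none of these was called, and fold changes near 10 on the log2 scale belong to genes at or near 0 reads in a group.

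The genes whose levels were most like those of Smad3 were taken by Spearman's rho of log2 CPM plus 1. Over the 21 libraries and 12088 other genes these were Cacng4 (0.69), Ccdc71l (0.67), Btg3 (0.67), Dnah2 (0.67) and Zfp593 (0.66). Over the 10 PMN libraries and 15615 other genes they were Sox9 (0.92), Kifc3 (0.90), Sox11 (0.88), Msl2 (0.88) and Rufy3 (0.88). Both lists are the highest of many values over few libraries that share groups and depth. Among the other TGF-beta genes in PMNs, rho with Smad3 was 0.47 for Tgfbr2, 0.46 for Smad4, 0.25 for Tgfbi, -0.23 for Smad2 and -0.49 for Smad7.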

How the data were processed

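RNA-Seq libraries were made from polyadenylated RNA and read as single-end sequences. Per the labels, the authors trimmed reads with Trim Galore 0.6.4 and quantified transcripts with Salmon 1.0.0. The deposited tables hold expected counts (NumReads), TPM and effective length for 140748 transcripts, in 2 tables per library. What distinguishes the 2 tables is not given in the sources used here. They were not independent samples of reads, since the squared difference over the sum had a median between 0.0151 and 0.0556, against 0.455 for independent sampling. Expected counts of both tables were added over each gene's transcripts and rounded, and TPM were averaged over both tables. Gene names came from the Gencode annotation of GRCm38, in which 139864 transcripts were matched. The 884 others held at most 0.255% of the reads and were left out. Promoter sequences came from RefSeq.

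Groups were taken from the sample titles. Counts were scaled by TMM, filtered with filterByExpr by group and tested in edgeR 4.0.16 by its quasi-likelihood F test (R 4.3.3, limma 3.58.1), with 1 mean per group and Benjamini-Hochberg adjustment over all genes tested (31769 in the joint fit, 25002 in PMNs and 25917 in TECs). Genes of the sex chromosomes and mitochondria were left out of the tests. A gene was called at an adjusted p under 0.05. DESeq2 1.42.0 (Wald test) and apeglm 1.24.0 (s under 0.01) were run as alternatives, beside DESeq2 size factors, other filters, each table alone, an offset for transcript length, robust dispersion, a replicate block and each library left out. The Smad3 share was tested over libraries with two-sided permutation tests (SciPy 1.17.1). The edgeR and permutation steps were tested on simulated data. P-values measure the spread between these libraries. Depth was 20881334 to 51624602 reads per library, and a count of 0 allows up to 3 reads, which is counting error only. This limit takes the added reads of both tables as separate, so folds set against it may be too high.

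The 10 genes and the lists of pathway genes and markers were chosen with earlier results of these data known. All 10 genes were named. Pathway genes were named where called, and otherwise the 3 with the smallest p were given. A gene that this rule names is not reported here. The 5 genes most like Smad3 were taken among genes with at least 10 reads in nearly as many libraries. Pairing by replicate number was looked for between groups of the same cell type only, and none was seen. Whether PMNs and TECs came from the same mice was not examined, and the joint fit and the share test took them as independent. In groups of 2 libraries the deviations from the mean mirror each other, so these correlations can hardly show pairing. Libraries of the same number had correlations of their deviations from group means between -0.0234 and 0.0304 in PMNs and between -0.106 and 0.139 in TECs.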

Additional observations from a re-analysis of the deposited data

How the results depend on the processing

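Most results kept their direction and their side of the threshold. For PMNs against TECs, 2 of the 10 genes were called. The count was 4 with no filter on low counts and 4 with a stricter filter of 10 reads, 6 with the Wald test of DESeq2 and 6 with apeglm, 1 without the IRI control group of PMNs (chosen after seeing the data), and 1 to 3 when single libraries were left out. The count of 3 added Bmp7 (edgeR adjusted p 0.0256 without replicate 2 of sham PMNs with RIPC, 0.0374 without replicate 1 of IRI PMNs with RIPC, 0.0413 without replicate 2 of IRI control TECs, 0.0445 and 0.0472 without replicates 2 and 3 of IRI TECs with RIPC). Bmp7 was also called with either of the 2 tables of each library alone (edgeR adjusted p 0.0490 and 0.0450). The count of 1 came with either library of the IRI control group of PMNs removed, where Smad3 had an edgeR adjusted p of 0.0705 and 0.0615. For IRI in PMNs the count of 0 became 1 with no filter, 0 to 1 with single libraries left out, and 5 by the Wald test and by apeglm. For RIPC in PMNs, 0 became 1 with no filter, by the Wald test and by apeglm, after sham surgery and after IRI. The interaction in PMNs and IRI without RIPC in PMNs each went from 0 to 2 by the Wald test and by apeglm, and the interaction in TECs from 0 to 1 by the Wald test. Tgfbr2 in PMNs against TECs turned to -0.32 with the sham groups alone (chosen after seeing the data), and Smad4 for IRI in PMNs turned to -2.06 without replicate 2 of the IRI control group (9.13 without replicate 1 of the sham control group). The difference in Smad3 share between PMNs and TECs was -3.78 points by estimated counts and ranged from -3.42 to 9.14 points with single libraries left out. That of IRI and sham in PMNs ranged from -28.8 to 0.0847 points. The cause was not tested. With the replicate number as a block, the count of called genes stayed at 2 for PMNs against TECs and at 0 in the other comparisons.

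Counts of all genes called varied more. Over the edgeR alternatives they ranged from 832 to 3216 for PMNs against TECs (2182), from 13 to 971 for IRI in PMNs (104) and from 92 to 1289 for IRI in TECs (363). For RIPC in PMNs they ranged from 0 to 139 after sham surgery (1) and from 0 to 18 after IRI (0), and in TECs from 0 to 54 (0) and from 0 to 71 (1). For the interaction they ranged from 0 to 101 in PMNs (0) and from 0 to 84 in TECs (0), and for IRI without RIPC from 0 to 120 in PMNs (0) and from 0 to 465 in TECs (1). DESeq2 size factors moved the median of all genes by 0.13 for IRI in TECs and by 0.11 for the interaction in TECs on the log2 scale. Groups of 2 or 3 libraries limit every comparison of RIPC.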
